A study of Mus musculus with 8 samples.

Results

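The genes described here encode 4 of the NF-κB subunits (*Nfkb1*, *Nfkb2*, *Rela* and *Relb*) and 6 inhibitors and regulators of the pathway (*Nfkbia*, *Nfkbib*, *Nfkbie*, *Tnfaip3*, *Nfkbiz* and *Bcl3*). They were taken by symbol from a list drawn up with earlier results of these data known, the rule itself using no measured value, and all 10 were found among the 30406 genes listed for every library. Their UMIs (unique molecular identifiers, each marking 1 captured mRNA molecule) were summed per library in β-, α- and δ-cells, macrophages, endothelial cells and mesenchymal cells of mouse islets. Levels are given in CPM, the UMIs of a gene per 1000000 UMIs of that cell type in the library after TMM scaling, which corrects for differences in composition.

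NF-κB is a dimer of Rel proteins that is held in the cytoplasm by IκB proteins. Receptors for IL-1β and similar signals activate the IKK complex, which marks IκB for destruction and frees the dimer to enter the nucleus, whereas the non-canonical route processes the *Nfkb2* precursor so that RelB dimers form. Many inhibitors of the pathway are themselves its targets, which closes feedback loops, and in β-cells the pathway is best known for driving *Nos2*, the inducible nitric oxide synthase.

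Islets of male C57BL/6 mice aged 12 to 16 weeks were used in 2 replicates, each a pool from 10 mice whose islets were shared out over 4 conditions for 18 h, so that 8 libraries resulted. The islets were left untreated, received IL-1β at 10 U/mL together with IFN-γ at 150 U/mL (called cytokines below), received these cytokines plus 2 mM NMMA, or received 2 mM NMMA alone. NMMA (NG-monomethyl-L-arginine) blocks nitric oxide synthases. Nothing was deleted or introduced in these wild-type animals, and since islets were pooled before culture, the replicates are pools and not single mice.

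The libraries held 26549922 to 50731370 UMIs, and 10876 of 17426 barcodes passed the filters, with at most 2 barcodes shared between any pair of libraries. Each cell type carried all of its own marker genes in every library used, except δ-cells with cytokines (4 of 5) and mesenchymal cells with cytokines and NMMA (6 to 7 of 7). Markers of other types could sum higher. β-cell markers summed to 53279 to 80240 CPM in macrophages with NMMA alone, against 17183 to 19565 for macrophage markers. In untreated mesenchymal cells they summed to 5780 to 46165, against 2382 to 5745 for mesenchymal markers. The part of such markers was not tested. β-cells numbered 448 to 1698 per library, α-cells 52 to 99, δ-cells 9 to 88, macrophages 29 to 73, endothelial cells 14 to 52 and mesenchymal cells 13 to 50. Different clusters held most cells of a type in different conditions. Of the α-cells, 88 of 94 in untreated replicate 1 fell in 1 cluster and 90 of 94 in untreated replicate 2 in another, whereas 52 of 52 and 54 of 69 of the cytokine-treated α-cells fell in another that held few α-cells of the other conditions (2 to 11 per library). β-, δ- and endothelial cells were likewise divided by treatment, and β-cells and untreated α- and δ-cells also by replicate, while all macrophages and all mesenchymal cells lay in 1 cluster each. Between 29 and 873 cells per library stayed unnamed and were not used.

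RefSeq promoter windows (250 bases before to 50 after a start site, build GRCm38.p6) were at hand for 7 of the 10 genes, namely *Bcl3*, *Nfkbib*, *Tnfaip3*, *Nfkbia*, *Nfkbie*, *Rela* and *Nfkb2*. *Nfkb1*, *Relb* and *Nfkbiz* had none. The κB consensus, the 10-base site that NF-κB dimers bind, was searched on both strands and its letters were found in the windows of 5 of these 7 genes, against 5.136% of all 27025 genes with a window. The stretches below show where these letters lie in the promoters of the genes whose levels are described next. Capitals mark the match, each run is written 5′ to 3′ along the strand of its gene with the match on either strand, and the matches are descriptions of letters rather than of binding.
Tnfaip3, chr10:19015403-19015432, gene on the minus strand: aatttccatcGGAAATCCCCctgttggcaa
Tnfaip3, chr10:19015516-19015545, gene on the minus strand: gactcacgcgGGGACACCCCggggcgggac
Nfkbia, chr12:55492657-55492686, gene on the minus strand: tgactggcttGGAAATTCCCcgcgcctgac
Nfkb2, chr19:46304688-46304717, gene on the plus strand: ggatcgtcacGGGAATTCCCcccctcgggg
Bcl3, chr7:19822734-19822763, gene on the minus strand: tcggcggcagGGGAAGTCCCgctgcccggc
Nfkbie, chr17:45555584-45555613, gene on the plus strand: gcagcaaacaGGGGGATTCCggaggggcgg
The *Nfkbia* match lay 29 to 20 bases before its start site, the first *Tnfaip3* match 12 to 3 bases before, and the first *Nfkb2* match 39 to 30 bases before. The *Bcl3* match lay 2 to 11 bases after its start. The windows of *Rela* and *Nfkbib* held no match.

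In β-cells the whole group rose with cytokines. All 10 genes were higher than in untreated β-cells (edgeR quasi-likelihood test with Benjamini-Hochberg adjustment over all genes, threshold 0.05), against 23.7% of the 12783 genes tested, and their median log2 change was 2.17 against 0.00195 over all genes. The libraries of the conditions did not overlap for any of the 10, which held for 36.8% of all genes in this direction. The steepest rises were those of *Tnfaip3*, *Nfkb2* and *Nfkbia*, and the 10 genes spanned log2 changes of 0.99 to 3.93. The p-values measure only the spread between these libraries of pooled islets.

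Among the subunits, *Nfkb2*, the precursor of the non-canonical subunit, stood at 2.74 and 3.26 CPM in the untreated β-cells of replicates 1 and 2 and at 23.6 and 19.7 with cytokines. The cytokine libraries were thus several times above the untreated ones, with a log2 change of 2.87 ± 0.25 (SE, n = 2 libraries per condition, edgeR adjusted p = 5.01e-05). *Relb*, its dimer partner, went from 4.12 and 3.32 to 19.98 and 13.9 CPM, a log2 change of 2.17 ± 0.25 (edgeR adjusted p = 0.000176). The canonical pair rose less. *Nfkb1* was at 24.9 and 22.7 CPM untreated and at 68.1 and 51.0 with cytokines (log2 change 1.32 ± 0.15, edgeR adjusted p = 0.000202). *Rela*, the main activating subunit, was at 13.4 and 15.2 untreated and at 32.0 and 33.1 CPM with cytokines (log2 change 1.19 ± 0.15, edgeR adjusted p = 0.000369). Replicate 1 was the higher cytokine library for every subunit except *Rela*.

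Among the inhibitors, *Tnfaip3*, which encodes the ubiquitin-editing enzyme A20, was almost silent in untreated β-cells, with 1.24 and 1.39 CPM, and reached 23.3 and 16.6 with cytokines. This 15.3-fold rise (log2 change 3.93 ± 0.23, edgeR adjusted p = 6.76e-06) was the largest of the group. *Nfkbia* encodes IκBα, the inhibitor that is resynthesised after each round of activation. It stood at 45.5 and 37.0 CPM untreated and at 339 and 237 with cytokines, a 6.97-fold rise (log2 change 2.80 ± 0.26, edgeR adjusted p = 7.16e-05). *Nfkbib*, which encodes IκBβ, went from 12.2 and 12.4 to 68.2 and 41.4 CPM (log2 change 2.16 ± 0.28, edgeR adjusted p = 0.000619).

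The mRNAs of the nuclear IκB proteins and of *Nfkbie* also rose. *Nfkbiz*, which encodes IκBζ, a cofactor for secondary response genes, was at 13.2 and 15.7 CPM untreated and at 71.7 and 67.9 with cytokines (log2 change 2.28 ± 0.13, edgeR adjusted p = 6.76e-06). *Bcl3*, a nuclear partner of Rel homodimers, went from 23.8 and 22.3 to 49.0 and 42.8 CPM (log2 change 0.99 ± 0.15, edgeR adjusted p = 0.000715). *Nfkbie*, which encodes IκBε, was the scarcest member in cytokine-treated β-cells, at 4.87 and 2.54 CPM against 1.80 and 1.87 untreated. Its rise was the least secure, with a log2 change of 1.04 ± 0.32 and an edgeR adjusted p of 0.0252. The call for *Nfkbie* held in 5 of the 8 fits that each left out 1 library and was lost when sums were scaled by total UMIs (log2 change 0.82, adjusted p = 0.0658). That scaling moved the median of all genes by -0.22 in β-cells and by -0.49 in α-cells, and the other 9 genes stayed higher under it in β-cells.

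**Figure D1:**
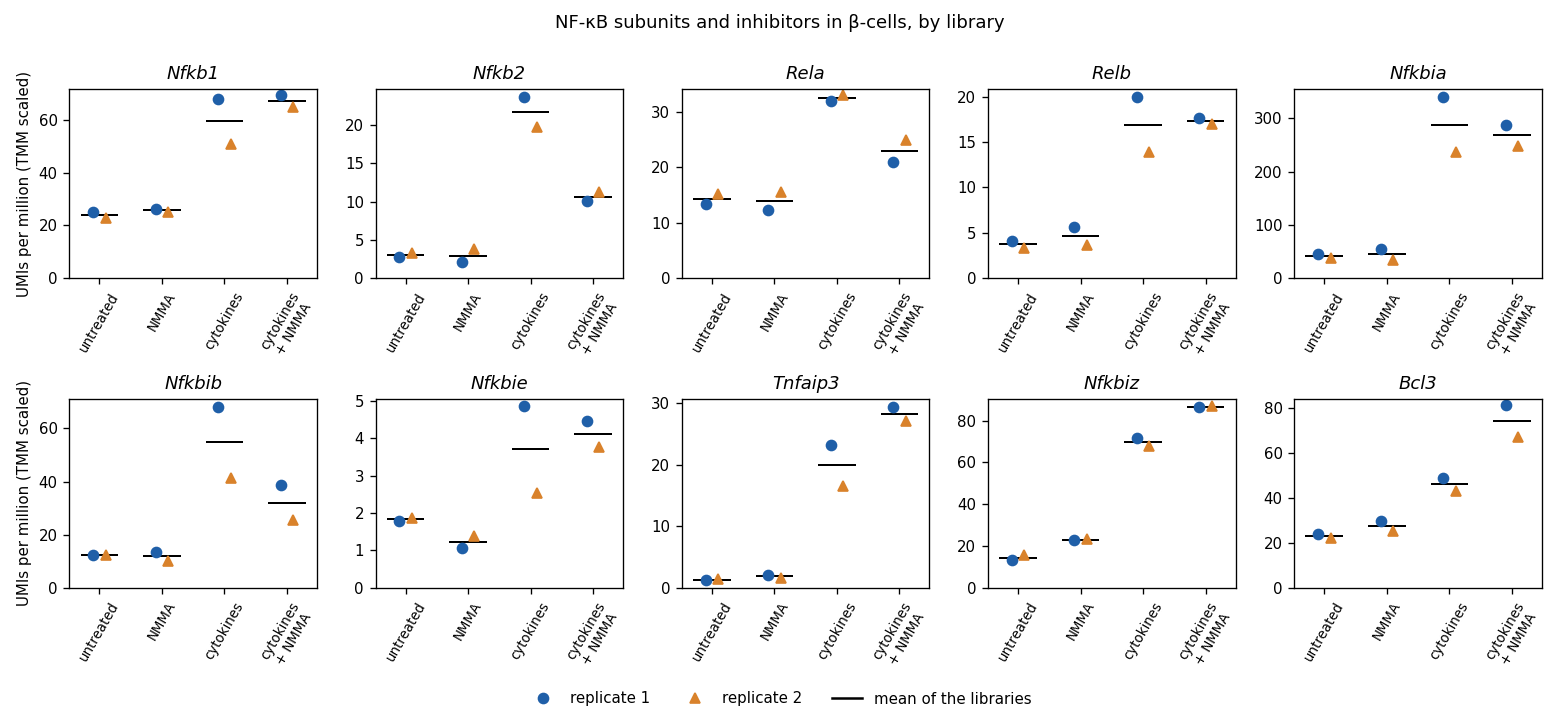
Level of each of the 10 genes in β-cells, in CPM after TMM scaling (vertical axis, linear from 0), for the 4 conditions (horizontal axis). Points are libraries (circles replicate 1, triangles replicate 2) and bars their means. The untreated and NMMA libraries lie low for every gene, the cytokine libraries lie above them, and *Nfkb2*, *Rela* and *Nfkbib* are lower with NMMA added to the cytokines whereas *Bcl3*, *Tnfaip3* and *Nfkbiz* are higher.

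Other genes of the pathway were taken from 4 lists. Of 14 genes of IL-1 receptor signalling, 7 rose and 2 fell after cytokine treatment of β-cells, with a median log2 change of 0.52. Over all genes 23.7% rose and 22.4% fell, so the share of this list that fell was below the background. *Irak2*, a kinase of the receptor complex, rose from 2.07 and 1.99 to 15.5 and 12.3 CPM (log2 change 2.77), and the adaptor *Myd88* rose by 1.51. The receptor itself, *Il1r1*, fell from 226 and 195 to 89.8 and 91.2 CPM (log2 change -1.22), and *Map3k7*, the kinase TAK1, fell by 0.44 on the log2 scale. Of 13 genes of the IKK complex and the non-canonical route, 10 were higher and 0 lower (median 0.65), among them *Birc3* (log2 change 3.47), a ubiquitin ligase, *Ikbke* (2.56) and *Ikbkg* (1.40), the regulatory IKK subunit.

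Of 14 tested genes among 15 further subunits and inhibitors, 10 were higher and 0 lower (median log2 change 0.84). *Zc3h12a*, an RNase that degrades inflammatory mRNAs, rose by 4.81, *Tnip1*, a partner of A20, by 2.67 and *Tax1bp1*, another A20 partner, by 0.96 on the log2 scale. Of 20 known NF-κB target genes 17 were tested, and 16 were higher and 0 lower. Some of these were near 0 CPM without cytokines, such as *Nos2*, *Fas* (0.19 and 0.18 untreated) and *Ccl2* (0.25 and 0.24). Such genes passed the filter on low counts only through cytokine-treated libraries and could come out only as higher. The count of this list is therefore a description and no support, here and for α-cells below. *Nos2* was at 0.03 and 0 CPM in untreated β-cells and at 193 and 162 with cytokines. The costimulatory receptor *Cd40* (log2 change 8.19) and the death receptor *Fas* (6.70) also rose. In α-cells the same 4 lists gave 1 higher and 2 lower of 12 tested, 7 higher of 13, 6 higher of 13 and 9 higher of 14, with no gene lower in the last 3. Over all genes tested in α-cells 13.9% were higher and 9.37% lower, so the first list did not exceed the background in the higher direction and held 2 genes in the lower one.

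α-cells showed the same direction for all genes tested. With cytokines 9 of 9 were higher than untreated (*Nfkbie* was too scarce to be tested), against 13.9% of the 9622 genes tested, with a median log2 change of 2.51 against -0.02 over all genes. *Tnfaip3*, *Nfkb2* and *Relb* had only 5, 13 and 17 UMIs over the untreated α-cells. They needed cytokine-treated libraries to pass the filter on low counts and had little room to come out as lower. Their part of this count is therefore a description and no support. *Nfkbia* led, from 46.6 and 31.2 CPM in untreated replicates 1 and 2 to 1256 and 509 with cytokines. Both cytokine libraries were far above both untreated ones, although they differed from each other more than 2-fold, and the log2 change was 4.51 ± 0.61 (n = 2 libraries per condition, edgeR adjusted p = 0.00518). *Tnfaip3* went from 2.15 and 1.06 to 47.0 and 25.4 CPM (log2 change 4.43 ± 0.50, edgeR adjusted p = 3e-06). *Nfkbiz* went from 14.3 and 10.1 to 98.4 and 83.6 (log2 change 2.91 ± 0.28, edgeR adjusted p = 3.61e-07).

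The subunits of α-cells followed. *Nfkb2* rose from 4.30 and 3.71 to 33.8 and 24.5 CPM (log2 change 2.82 ± 0.43, edgeR adjusted p = 9.9e-05), and *Nfkb1* from 30.1 and 27.0 to 141 and 70.8 (log2 change 1.86 ± 0.31, edgeR adjusted p = 0.000449). *Relb* was at 7.17 and 3.71 untreated and at 52.9 and 12.7 with cytokines, so that its cytokine libraries lay far apart, and its call (log2 change 2.51 ± 0.66, edgeR adjusted p = 0.0234) held in 4 of 8 fits that each left out 1 library. *Nfkbib* (log2 change 1.82), *Bcl3* (1.28) and *Rela* (1.09) completed the group. When sums were scaled by total UMIs the calls for *Bcl3* (adjusted p = 0.0548) and *Rela* (adjusted p = 0.0979) were lost in α-cells. The summed level of 8 β-cell markers in α-cells was 8900 to 14254 CPM untreated and 45510 to 73769 with cytokines, and its part in these changes was not tested. On a scale set jointly over the cell types, *Nfkbia* with cytokines was at 1329.7 and 532 CPM in α-cells and at 454 and 325 in β-cells.

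In δ-cells the comparison rested on 1 cytokine library, with 13 cells, since the other held 9 and fell under the minimum of 10. That library stands alone for its condition and is assumed to vary like the others. *Nfkbia* was at 58.0 and 48.6 CPM untreated and at 191 in the cytokine library (log2 change 1.83 ± 0.31, edgeR adjusted p = 0.00074). *Tnfaip3* needed cytokine-treated libraries to pass the filter on low counts, so its call is a description and no support. It had 1 and 0 UMIs in the untreated δ-cells and 8 UMIs in 13 cytokine-treated cells, a ratio of 55.1 per UMI sequenced with a 95% exact interval of 7.38 to 2443 that covers counting error only. These were the 2 of 9 genes tested that were called (4.54% of all genes). With the library of 9 cells added, 5 were called, and with the replicates as blocks 3 (9.13% of all genes), *Bcl3* being the third (adjusted p = 0.00827).

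δ-cells were better covered when NMMA accompanied the cytokines (62 and 41 cells), and 8 of 9 genes were then higher than untreated, against 6.22% of all genes. *Tnfaip3*, *Nfkb2* and *Relb* had only 1, 5 and 12 UMIs over the untreated δ-cells. They needed cytokine-treated libraries to pass the filter on low counts, so their part of this count is a description and no support. *Nfkbia* was at 337 and 296 CPM, *Nfkbiz* at 125 and 118 against 31.5 and 38.2 untreated (log2 change 1.82 ± 0.26, edgeR adjusted p = 5.11e-05), and *Bcl3* at 102 and 86.5 against 23.6 and 5.21. *Rela* was the member not called (log2 change 0.14 ± 0.34). Without untreated replicate 1, or without either of the cytokine libraries with NMMA, 4 or 5 genes were past the threshold, and DESeq2 called 4 of 9. The 5 δ-cell markers summed to 60082 to 79906.5 CPM untreated, 35609 to 36872 with cytokines and NMMA and 25465 in the cytokine library. The 8 β-cell markers summed to 28619 to 44083.5, 51857 to 53081 and 50679.5 in the same order. The 4 markers of PP-cells (pancreatic polypeptide cells) summed to 84297 to 128207, 46233 to 58058 and 23942. They thus outweighed the δ-cell markers untreated and with cytokines and NMMA. The 7 α-cell markers summed to 9802 to 37721, 6562 to 17412 and 32680 in the same order. In the cytokine library both the α-cell and the β-cell markers exceeded the δ-cell markers. The part of these lists was not tested.

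Macrophages, endothelial and mesenchymal cells showed few called changes. In endothelial cells *Nfkbia* and *Nfkbiz* were the 2 of 9 genes called with cytokines (4.65% of all genes). *Nfkbiz* went from 23.0 and 40.8 to 134 and 175 CPM (log2 change 2.25 ± 0.32, edgeR adjusted p = 0.000166), a change called in all 8 fits that left out a library. *Nfkbia* was high before treatment, at 589 and 805, and stood at 1484 and 1060.5 with cytokines (log2 change 0.86 ± 0.24, edgeR adjusted p = 0.037). The *Nfkbia* call was lost with total-UMI scaling (adjusted p = 0.105) and in DESeq2 (adjusted p = 0.0642). *Tnfaip3* was at 3.84 and 26.8 CPM untreated and at 24.8 and 2.87 with cytokines, and these libraries overlapped. The 8 β-cell markers summed to 4741 to 4872 CPM in untreated endothelial cells and to 2267 to 2355 with cytokines, and their part was not tested.

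In macrophages *Nfkbib* was the 1 of 10 genes called with cytokines (3.42% of all genes), from 38.7 and 41.2 to 96.1 and 95.6 CPM (log2 change 1.25 ± 0.30, edgeR adjusted p = 0.0279). The call was lost in DESeq2 (adjusted p = 0.365), with total-UMI scaling and with doublets removed, and held in 4 of 8 fits that left out a library. With the replicates as blocks *Nfkbia* was called as well (log2 change 1.10, adjusted p = 0.0214, 7.94% of all genes). *Tnfaip3*, already at 36.0 and 20.6 CPM in untreated macrophages, was at 51.4 and 37.2 with cytokines (log2 change 0.74 ± 0.46). β-cell markers summed to 18570 to 42824 CPM in untreated macrophages and to 2318 to 6531 in cytokine-treated ones, and their part was not tested, while the 10 macrophage markers were all detected in every library.

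In mesenchymal cells *Nfkb1* was the 1 of 7 genes called (1.73% of all genes), from 68.2 and 41.3 to 279 and 179 CPM (log2 change 2.06 ± 0.42, edgeR adjusted p = 0.0318). The call was lost with total-UMI scaling (adjusted p = 0.0721) and without either cytokine or either untreated library, so that it held in 4 of 8 fits that left out a library. The 8 β-cell markers summed to 5780 to 46165 CPM in untreated mesenchymal cells and to 2433 to 2945 with cytokines, and the 6 ductal markers to 2106 to 2856 and to 137 to 268, and their part was not tested. *Nfkbia* went from 106 and 167 to 689 and 484 and was called with the replicates as blocks (adjusted p = 0.00974, in a fit that called 3.23% of all genes), while its adjusted p without them was 0.0557 (log2 change 2.08 ± 0.47). *Tnfaip3* had 0 UMIs in 695538 in the untreated mesenchymal cells, which allows up to 4.31 CPM, and 10 UMIs with cytokines. That level is 5.04 times the level of 3 UMIs over the untreated libraries, and the exact 95% lower limit of the ratio is 3.39, for counting error only. All 3 types thus had called changes that rested on 13 to 73 cells per library. None of these cell types had more than 2 genes called in this comparison with any scaling, filter or block. At the finer clustering 4 were called in mesenchymal cells, but that class then held 258 cells against 217. Its leading genes there included *Cxcl3*, *Il6* and *Cxcl9*, which also led a cluster named endothelial at the main clustering.

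**Figure D2:**
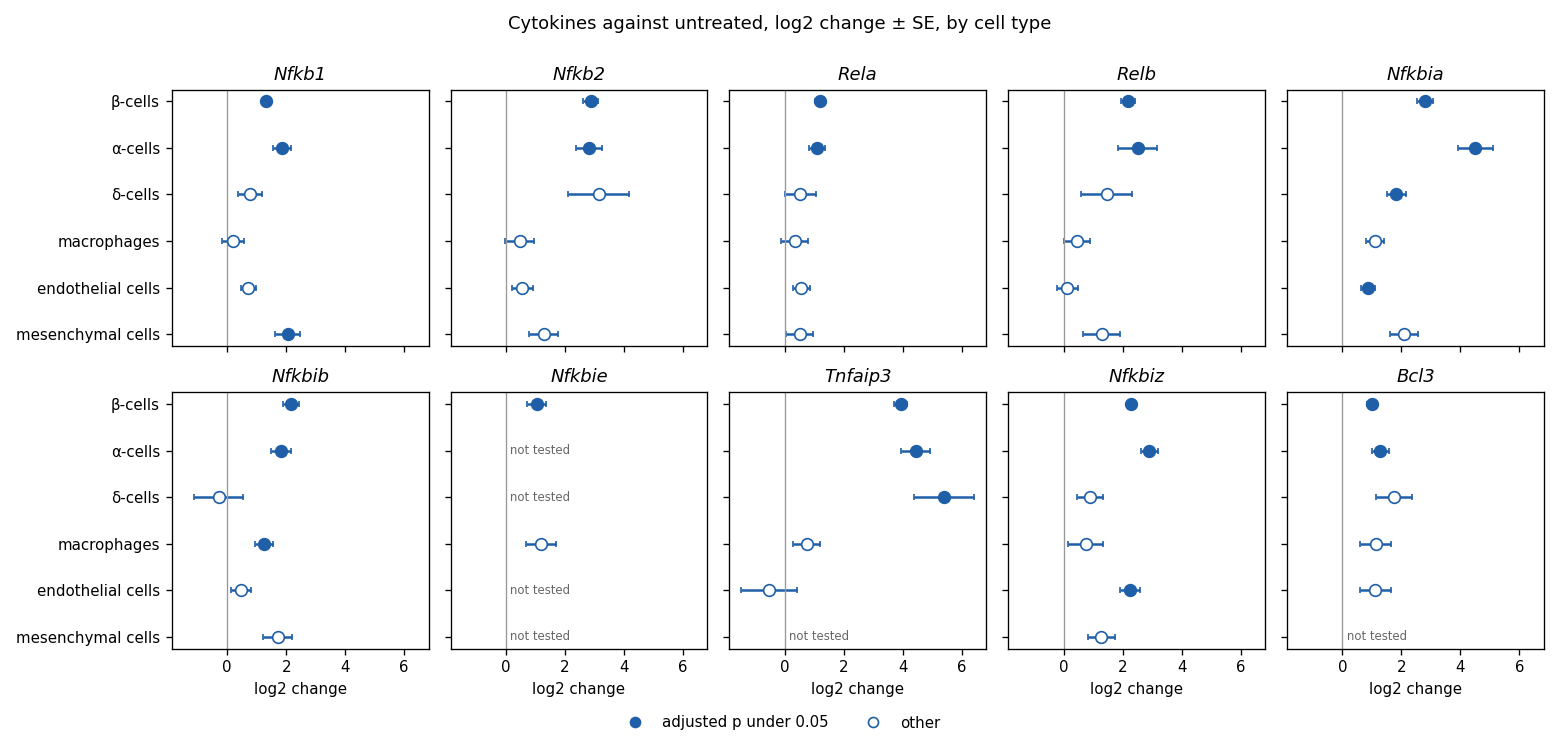
Log2 change of each gene with cytokines against untreated (horizontal axis) in the 6 cell types (vertical axis), with bars for ± 1 SE from edgeR. Filled points have an adjusted p under 0.05, open points do not, and genes too scarce for the test carry a remark. Every gene tested is filled in β- and α-cells, whereas 1 or 2 are filled in each of the other types.

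Whether the response differed between cell types was tested directly, as the difference of the cytokine effect within pairs of types in the same libraries. β- and α-cells differed for 1 of 10 genes, *Nfkbia* (4.98% of all genes), whose log2 change was lower in β-cells by 1.63 (β minus α -1.63 ± 0.24, edgeR adjusted p = 7.03e-05), and this held in all 8 fits that left out a library. For *Tnfaip3* (-0.62 ± 0.68) and *Nfkb2* (-0.04 ± 0.50) the β minus α difference was within 1 SE of 0. β-cells responded more than endothelial cells for 5 of 10 genes (6.35% of all genes) and more than macrophages for 4 of 10 (5.89% of all genes). *Tnfaip3* differed most, by 4.18 ± 0.70 from endothelial cells (edgeR adjusted p = 3.77e-07) and by 3.25 ± 0.55 from macrophages (edgeR adjusted p = 3.93e-07). *Nfkb2* differed by 2.15 ± 0.43 and 2.41 ± 0.61 and *Nfkbia* by 1.80 ± 0.25 and 1.74 ± 0.33 from the same types. The endothelial side of the *Tnfaip3* value rested on 21 UMIs untreated and 6 with cytokines. Its libraries overlapped, so the size of that difference is uncertain.

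*Nfkbiz* differed for some pairs. Its response was larger in β- than in δ-cells by 1.45 ± 0.43 (edgeR adjusted p = 0.0336), the 1 of 10 genes called for that pair (2.77% of all genes), although the δ-cell side again rested on 1 cytokine library. It was larger in α-cells than in macrophages by 2.23 ± 0.65 (edgeR adjusted p = 0.0209). The first call held in 5 of 7 and the second in 5 of 8 fits that left out a library, and *Nfkbiz* was not called between β-cells and macrophages. β- and mesenchymal cells differed for 0 of 10 genes in edgeR (1.68% of all genes), with 2 at an unadjusted p under 0.05. α-cells responded more than endothelial cells for 5 of 10 genes (6.54% of all genes), than macrophages for 4 (5.98%), than δ-cells for 2 (4.07%) and than mesenchymal cells for 1 (1.3%). *Nfkbia* was among them against endothelial cells (3.43 ± 0.51, edgeR adjusted p = 0.00834), δ-cells (1.94 ± 0.33, edgeR adjusted p = 0.000133) and mesenchymal cells (2.41 ± 0.44, edgeR adjusted p = 0.000862). δ-cells differed from macrophages (1.22% of all genes) and from endothelial cells (1.98%) for *Tnfaip3* alone. For δ- against mesenchymal cells (0.434% of all genes) 0 genes were called by edgeR with 0 at an unadjusted p under 0.05, and for macrophages against endothelial (1.44%) and mesenchymal cells (0.297%) and endothelial against mesenchymal cells (0.0407%) 0 were called with 2, 3 and 3. DESeq2 was not run for these pairs. Over the 15 pairs of cell types 25 differences were called, and 7 without untreated replicate 2, the library that changed this number most.

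NMMA was added to ask which responses depend on nitric oxide. With cytokines and NMMA all 10 genes were again higher than untreated in β-cells (12.8% of all genes), and 7 of 9 in α-cells (6.1% of all genes). For *Tnfaip3*, *Nfkb2* and *Relb* in α-cells the limit set by the filter on low counts holds here too. Against cytokines with NMMA, cytokines alone gave 2 genes higher and 1 lower in β-cells (9.07% and 10.3% of all genes). *Nfkb2* was at 23.6 and 19.7 CPM without NMMA and at 10.0 and 11.3 with it, a log2 difference of 1.03 ± 0.24 (edgeR adjusted p = 0.0179). *Rela* was at 32.0 and 33.1 without and at 20.9 and 24.9 with NMMA (0.51 ± 0.15, edgeR adjusted p = 0.0466). *Bcl3* went the other way, with 49.0 and 42.8 CPM without and 81.1 and 67.0 with NMMA (-0.69 ± 0.14, edgeR adjusted p = 0.0132). For these 3 genes the libraries with and without NMMA did not overlap, as for 28.7% of all genes in the higher and 31.4% in the lower direction.

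With the replicates as blocks 6 of the 10 genes were called in this comparison in β-cells, against 40.6% of all genes in that fit. The 3 added were *Nfkbib*, higher without NMMA (log2 difference 0.76, adjusted p = 0.000411), and *Tnfaip3* (-0.50, adjusted p = 0.00416) and *Nfkbiz* (-0.31, adjusted p = 0.0168), both lower without it. *Tnfaip3* was at 23.3 and 16.6 CPM without and at 29.3 and 27.1 with NMMA. Scaling by total UMIs moved the median of all genes by -0.21 in this comparison, and the calls moved with it. With sums scaled by total UMIs *Nfkb2* (0.82, adjusted p = 0.0523) and *Rela* (0.29, adjusted p = 0.28) were no longer called, and 3 genes were lower without NMMA, namely *Bcl3* (-0.90), *Tnfaip3* (-0.71) and *Nfkbiz* (-0.52). No gene was called once cytokines with NMMA replicate 1 was left out, 1 without cytokines replicate 1 and 1 without cytokines with NMMA replicate 2. *Nfkbia* (0.10 ± 0.24) and *Relb* (-0.03 ± 0.23) had differences within 1 SE of 0.

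In α-cells 0 of 9 genes were called by edgeR between cytokines without and with NMMA (11.4% of all genes), with 5 at an unadjusted p under 0.05 and 1, *Nfkbia*, called by DESeq2. *Nfkbia* was at 1256 and 509 CPM without NMMA and at 306 and 179 with it, a log2 difference of 1.86 ± 0.53 (edgeR adjusted p = 0.093), and the libraries did not overlap (25.4% of all genes in this direction). With the replicates as blocks, in a fit that called 19.8% of all genes, *Nfkbia* (1.79, adjusted p = 2.44e-13) and *Nfkbib* (0.75, adjusted p = 0.029) were higher without NMMA. Whether this difference was larger in α- than in β-cells was not tested. In δ-cells 0 of 9 genes were called (2.2% of all genes), with 3 at an unadjusted p under 0.05 and 0 by DESeq2. In macrophages it was 0 of 10 (0.0349% of all genes), with 1 at an unadjusted p under 0.05, and in endothelial and mesenchymal cells 0 of 9 and 0 of 7 (0% of all genes), with 0 at an unadjusted p under 0.05, and DESeq2 called 0 in all 3.

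**Figure D3:**
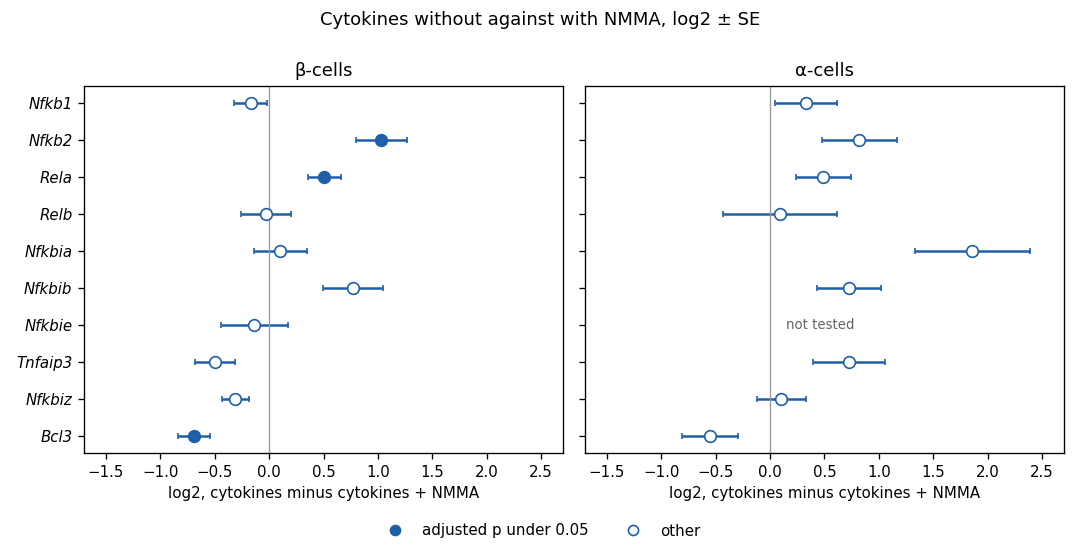
Log2 difference between cytokines without and with NMMA (horizontal axis) for the 10 genes (vertical axis) in β-cells and α-cells, with bars for ± 1 SE from edgeR. Filled points have an adjusted p under 0.05. *Nfkb2* and *Rela* lie to the right and *Bcl3* to the left in both cell types, filled in β-cells, and *Nfkbia* in α-cells lies farthest to the right, unfilled.

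NMMA without cytokines gave 0 called members in each of the 6 cell types by edgeR and by DESeq2 (0% of all genes by edgeR in each type). In β-cells *Nfkbiz* was at 22.7 and 23.5 CPM with NMMA and at 13.2 and 15.7 untreated, without overlap (18.5% of all genes in this direction). It was the 1 of 10 genes at an unadjusted p under 0.05 (log2 change 0.68 ± 0.13, edgeR adjusted p = 0.317). With the replicates as blocks it was called (0.69, adjusted p = 0.00314), in a fit that called 3.43% of all genes. In α-cells 1 of 9 genes had an unadjusted p under 0.05, *Bcl3* (log2 change 0.71 ± 0.30, edgeR adjusted p = 1), and in the other 4 types 0 did.

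In endothelial cells, macrophages and mesenchymal cells the counts with cytokines and NMMA equalled those with cytokines. Endothelial cells had 2 of 9 genes called (5.01% of all genes), *Nfkbiz* (log2 change 2.17 ± 0.32, edgeR adjusted p = 0.000218) and *Bcl3* (1.80 ± 0.48, edgeR adjusted p = 0.0291), and 4 with the replicates as blocks (10.1% of all genes), *Nfkb1* (adjusted p = 0.0112) and *Nfkbia* (adjusted p = 0.0132) being the others. *Bcl3* was at 19.2 and 16.9 CPM untreated and at 41.0 and 77.4 with cytokines and NMMA. The 10 macrophage markers summed to 15.9 and 1430 CPM in the endothelial cells of those libraries, against 7.29 to 14.0 in untreated ones, and their part was not tested. Macrophages had 1 of 10 called (4.8% of all genes), *Nfkbia* (1.15 ± 0.31, edgeR adjusted p = 0.0369), and mesenchymal cells 1 of 7 (1.92% of all genes), *Nfkb1* (1.93 ± 0.41, edgeR adjusted p = 0.0391).

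In untreated islets the genes differed widely between cell types, here on a scale set jointly over the 6 types. *Nfkbia* was at 535 ± 116 CPM (mean ± SD, n = 2) in endothelial cells, 119 ± 38.7 in mesenchymal cells, 119 ± 22.4 in macrophages, 59.2 ± 8.90 in β-cells, 47.3 ± 5.86 in δ-cells and 41.1 ± 11.6 in α-cells. Endothelial cells exceeded mesenchymal cells (log2 difference 2.16, edgeR adjusted p = 3.88e-05) and macrophages exceeded β-cells (1.03, edgeR adjusted p = 0.000122), while the other neighbours in this order did not differ beyond the threshold. *Tnfaip3* was highest in macrophages, at 30.8 ± 10.4, followed by endothelial cells at 11.7 ± 12.4, which did not differ from them, and lay at 1.89 ± 0.13 in β-cells, 1.70 ± 0.82 in α-cells, 0.44 ± 0.62 in δ-cells and 0 in mesenchymal cells.

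The subunits followed a like order, with the endocrine types at the low end. *Nfkb1* was highest in endothelial cells, at 98.2 ± 13.7 CPM against 54.4 ± 6.17 in macrophages (log2 difference 0.85, edgeR adjusted p = 0.0141), and ran from there without a called step between neighbours down to 30.2 ± 2.40 in α-cells. *Nfkb2* was at 36.1 ± 9.08 in mesenchymal, 33.7 ± 0.33 in endothelial cells and 21.2 ± 0.935 in macrophages, which did not differ as neighbours, and at 4.30 ± 0.50, 4.23 ± 0.46 and 3.52 ± 3.74 in β-, α- and δ-cells. *Relb* showed the same break between macrophages, at 26.4 ± 4.19, and δ-cells, at 7.24 ± 2.84 (log2 difference 1.88, edgeR adjusted p = 0.00399). *Rela* ranged from 78.7 ± 7.55 in endothelial cells to 20.5 ± 1.67 in β-cells with no called step between neighbours.

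*Bcl3* went against this order. It was highest in β-cells, at 33.0 ± 1.79 CPM, followed by α-cells at 23.0 ± 7.21 (log2 difference 0.56, edgeR adjusted p = 0.0238), and lay between 12.7 ± 2.98 and 16.8 ± 7.17 in the other 4 types. *Nfkbiz* ranged from 42.0 ± 0.69 in mesenchymal cells to 12.9 ± 3.23 in α-cells and *Nfkbib* from 44.0 ± 4.08 in macrophages to 13.6 ± 1.76 in δ-cells, both without a called step between neighbours. *Nfkbie* was at 16.5 ± 5.70 in macrophages and at 2.63 ± 0.06 in β-cells. Untreated β-cells and endothelial cells differed for 9 of 10 genes, against 54.9% of all genes, and β- and α-cells for 3 of 10, against 30.7%.

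**Figure D4:**
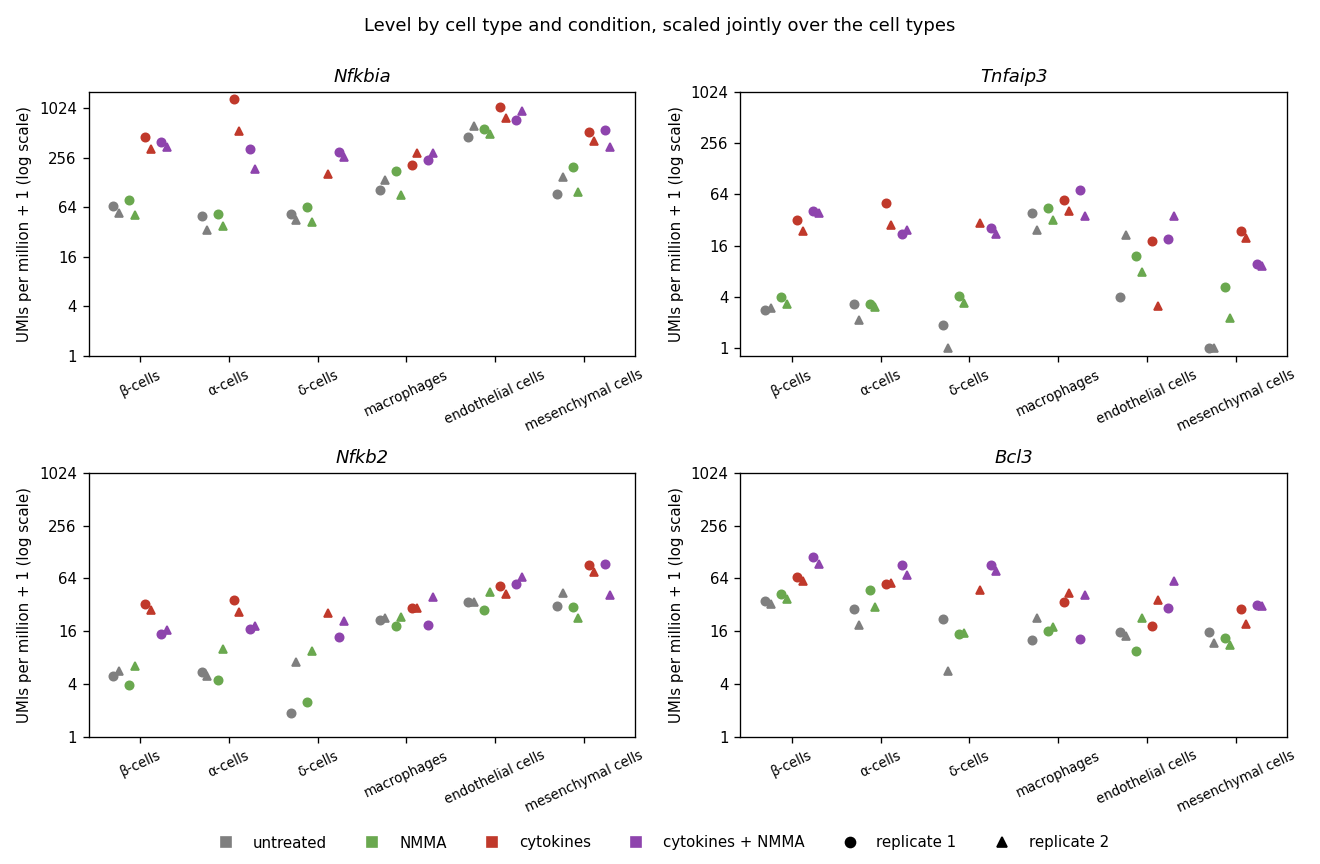
Level of *Nfkbia*, *Tnfaip3*, *Nfkb2* and *Bcl3* in each library (circles replicate 1, triangles replicate 2), in CPM plus 1 on a log scale set jointly over the 6 cell types (horizontal axis), with colours for the conditions. Endocrine cells without cytokines, untreated or with NMMA alone, lie lowest for *Nfkbia* and *Nfkb2*, cytokine-treated α-cells reach the level of endothelial cells for *Nfkbia*, and β-cells with cytokines and NMMA lie highest for *Bcl3*.

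Over the 24 means of cell type and condition, the gene most alike to each member among 3999 genes tested in all 6 types was *Tnip1* for *Nfkb1* (Pearson r of log2 levels 0.949), *Rras* for *Nfkb2* (0.945), *Psmc4* for *Rela* (0.975), *Ifitm3* for *Relb* (0.956), *Clic4* for *Nfkbia* (0.924), *Mapkapk2* for *Nfkbib* (0.880) and *Seh1l* for *Nfkbiz* (0.863). The second were *Nab1* (0.942), *Ifitm3* (0.941), *Wsb1* (0.970), *Tnfaip2* (0.955), *Arid5a* (0.911), *Irf8* (0.857) and *Stat3* (0.853) in the same order. *Nfkbie*, *Tnfaip3* and *Bcl3* were not tested in all 6 types and were not compared. The points share libraries and differ in depth, so these values describe likeness only.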

How the data were processed

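Per the study's methods and the submitters' processing notes, the authors aligned the single-cell libraries to mm10 and deposited unnormalised UMI counts per gene and barcode. The headers of the deposited counts name Cell Ranger 3.0.0 and 6.0.0. Replicate 1 lists 31053 genes and replicate 2 lists 32285, of which 30406 are shared and were used. The 8 libraries were grouped by their labels.

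Barcodes with at least 200 genes, at most 5500 (replicate 1) or 6500 (replicate 2) genes and at most 10% mitochondrial UMIs were kept. Cells were clustered with scanpy 1.11.5 (2000 variable genes, 30 components, 20 neighbours, Leiden resolution 1), and 23 clusters were named from marker lists. The 99 cells called doublets were kept in the sums and removed in an alternative. Raw counts were summed per library and cell type (at least 10 cells) and tested with edgeR 4.0.16 (filterByExpr, TMM, robust quasi-likelihood test, Benjamini-Hochberg adjustment over all genes, threshold 0.05). Cell types were compared in 2-class fits with the library as a block. DESeq2 1.42.0, other scalings, filters, clusterings and left-out libraries were alternatives. The edgeR fits were also run on simulated counts, whose outcome is not given here and does not vouch for the p-values.

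Libraries of a replicate number come from 1 pool of islets. Same-numbered libraries deviated together, with correlations from 0.139 to 0.752 over the 6 cell types. The intervals printed cover counting error only. The 10 genes, the marker lists and the 4 pathway lists were chosen with earlier results of these data known. The 10 genes are all named, and from each pathway list at most the 3 genes with the smallest adjusted p in cytokine-treated β-cells and those called against the direction of their list. From the list of target genes, examples near 0 CPM without cytokines are named as well.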

Additional observations from a re-analysis of the deposited data

Results flagged for a closer look

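The effect of cytokines against untreated differed between cell types in 25 tests of the difference itself (edgeR, class by treatment interaction, adjusted over all genes of each pair of types). The values are differences of log2 changes, first type minus second. Between β- and α-cells *Nfkbia* differed by -1.63. Between β- and δ-cells *Nfkbiz* differed by 1.45.

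Between β-cells and macrophages *Tnfaip3* differed by 3.25, *Nfkb2* by 2.41, *Relb* by 1.81 and *Nfkbia* by 1.74. Between β- and endothelial cells *Tnfaip3* differed by 4.18, *Nfkb2* by 2.15, *Relb* by 1.88, *Nfkbia* by 1.80 and *Nfkbib* by 1.45.

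Between α- and δ-cells *Nfkbiz* differed by 1.97 and *Nfkbia* by 1.94 (4.07% of all genes called). Between α-cells and macrophages *Tnfaip3* differed by 3.73, *Nfkb2* by 2.37, *Nfkbiz* by 2.23 and *Nfkb1* by 1.66 (5.98% of all genes called). Between α- and endothelial cells *Tnfaip3* differed by 4.83, *Nfkbia* by 3.43, *Relb* by 2.17, *Nfkb2* by 2.15 and *Nfkb1* by 1.004 (6.54% of all genes called). Between α- and mesenchymal cells *Nfkbia* differed by 2.41 (1.3% of all genes called).

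*Tnfaip3* also differed between δ-cells and macrophages (fitted value 4.99, 1.22% of all genes called) and between δ- and endothelial cells (fitted value 7.41, 1.98% of all genes called). Both values rest on 1 UMI in untreated δ-cells and on 1 cytokine library, so their size is not a bound. Each *Tnfaip3* value against endothelial cells also rests on 6 UMIs in cytokine-treated endothelial cells, whose libraries overlapped the untreated ones.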

How the results depend on the processing

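With 2 libraries per condition, and 13 to 73 cells per library in the scarcer types, small changes were not detectable at this depth. The counts of 10 genes called in β-cells after cytokines, without or with NMMA, and of 9 in α-cells after cytokines alone stayed within 1.5 times under every alternative run, and no value reversed. With the replicates as blocks, which follows the pairing of the pools, the count went from 3 to 6 in β-cells between cytokines without and with NMMA, from 0 to 1 in β-cells with NMMA alone, from 0 to 2 in α-cells between cytokines without and with NMMA, from 2 to 4 in endothelial cells with cytokines and NMMA, and from 1 to 2 in macrophages and in mesenchymal cells with cytokines, without or with NMMA.

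DESeq2 called 1 gene in α-cells between cytokines without and with NMMA (edgeR 0), 1 in δ-cells with cytokines (edgeR 2), 4 in δ-cells with cytokines and NMMA (edgeR 8), 1 in endothelial cells without or with NMMA (edgeR 2), 0 in macrophages without or with NMMA (edgeR 1) and 2 in mesenchymal cells with cytokines (edgeR 1). Over all genes DESeq2 called 542 of 9622 in that α-cell comparison. It called 296 of 9506 genes higher in δ-cells with cytokines and NMMA. The numbers higher were 267 and 286 of 7503 in endothelial cells, without and with NMMA, and 143 and 186 of 5728 in macrophages. In mesenchymal cells with cytokines 110 of 5269 were higher. Scaling by total UMIs gave 1 in α-cells between cytokines without and with NMMA, 1 in endothelial cells and 0 in macrophages and in mesenchymal cells, each without or with NMMA. Without the filter on low counts 1 was called in α-cells between cytokines without and with NMMA, 1 in β-cells with NMMA alone, 4 in δ-cells with cytokines, and 2 in macrophages and in mesenchymal cells without or with NMMA. The finer clustering gave 1 in endothelial cells without or with NMMA, and 4 and 3 in mesenchymal cells without and with it. The mesenchymal class of that clustering was not made up of the same cells (258 against 217). A minimum of 5 cells gave 5 in δ-cells with cytokines, and with doublets removed 0 were called in macrophages with cytokines. Shares over all genes are not given for other scalings, filters, clusterings and minimums, for doublets removed or for left-out libraries. The counts from those fits therefore have no background beside them.

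Leaving out 1 library at a time gave 0 to 3 in β-cells and 0 to 1 in α-cells between cytokines without and with NMMA (1 without cytokines replicate 2 in α-cells), 3 to 8 in α-cells with cytokines and NMMA (3 without untreated replicate 2), 2 to 3 in δ-cells with cytokines and 4 to 8 with NMMA added, 1 to 2 in endothelial cells with cytokines (1 without cytokines replicate 1 or untreated replicate 1) and 1 to 3 with NMMA added (1 without cytokines with NMMA replicate 2 or either untreated library). It gave 0 to 2 in macrophages with cytokines (0 without cytokines replicate 2 or either untreated library, 2 without either NMMA library) and 0 to 1 with NMMA added (0 without either library of that condition or either untreated library). In mesenchymal cells it gave 0 to 2 with cytokines (0 without either library of that condition or either untreated library, 2 without any other) and 0 to 2 with NMMA added (0 without cytokines with NMMA replicate 1 or either untreated library). Differences of the cytokine effect between cell types numbered 25, and 7 to 28 with 1 library left out. Differences of the untreated level numbered 71 over the 15 pairs, and 34 to 75 with 1 left out, with 34 without untreated replicate 2. Such differences were common among all genes, at 30.7% between β- and α-cells and 54.9% between β- and endothelial cells. The 71 are therefore not read as a result about these genes. Over the single genes named, 3252 of the recomputed values kept direction and side of the threshold, 109 lost the threshold and 60 gained it. The cause of these changes was not tested. DESeq2 and the replicate number as a block were not run for the comparisons between cell types, where the library was already a block.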
